A study of Mus musculus with 4 samples.

Results

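The genes described here encode the subunits of the proteasome and 3 of its assembly chaperones, in the hippocampus of mice that lack 1 or both of a pair of DNA repair enzymes. They were chosen by symbol, as every gene named Psma, Psmb, Psmc or Psmd with a number, except Psmb8 and Psmb9. The rule used no measured value, and it gave 37 of the 18492 genes listed in any library. Of these, 17 belong to the core particle (Psma and Psmb) and 20 to the regulatory particle (Psmc and Psmd). All 37 had reads in all 4 libraries, and 35 had a mean of at least 1 RPKM (reads per kilobase of gene and M reads in the library, with M for mega). The other 2, Psma8 and Psmb11, fell under that level and are given apart.

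Each library came from hippocampus of C57BL/6 mice aged 6 months, 1 library per genotype: wild type (WT), Ogg1-/- (Ogg1 KO), Mutyh-/- (Mutyh KO) and the loss of both genes (DKO, whose genotype label reads Ogg-/- Mutyh-/-). Ogg1 removes oxidised guanine from DNA, and Mutyh removes adenine placed opposite it. No source used here gives the number of animals behind each RNA, their sex or the part of each gene that was deleted. A genotype is thus 1 library, no difference below could be checked in a replicate, and none has a p-value. What is compared is always a pair of libraries, and a difference between them need not be one between genotypes.

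The proteasome is the main machine that degrades ubiquitin-tagged proteins in the cytosol and nucleus. Its core is a barrel of alpha rings, which gate the entrance, and beta rings, in which Psmb5, Psmb6 and Psmb7 carry the cutting sites. The regulatory particle caps the barrel: its base holds a ring of ATPases that unfold the substrate, and its lid removes ubiquitin. Subunits are needed in fixed proportions, and the transcription factor Nfe2l1 is known to raise their genes together when the proteasome is impaired. In neurons the proteasome also takes part in synaptic turnover.

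The libraries held 17.0 to 18.2 M unique reads in genes. Ogg1 had 94 reads (WT), 130 (Ogg1 KO), 81 (Mutyh KO) and 103 (DKO), so its read number was not lower where the labels say that it was lost. The covered part of its length was 86.7% and 81.5% where Ogg1 is intact (WT and Mutyh KO), but 47.2% in the Ogg1 KO library and 46.4% in the DKO one. Ogg1 KO and DKO below mean the libraries so labelled. Mutyh had 39, 35, 15 and 20 reads in the same order. Markers of hippocampal neurons were present in all 4 libraries, at 9887 to 10708 reads per M, with none of the 9 at 0. The 10 choroid plexus markers summed to 483 reads per M (WT), 4725 (Ogg1 KO), 4716 (Mutyh KO) and 2442 (DKO), all 10 of them above WT in each knockout library. Red blood cell markers ran from 36.5 in WT to 126 in Mutyh KO, and meningeal markers from 244 to 722 in the same libraries. Xist, the RNA of the inactive X chromosome, had 10307 reads in Mutyh KO and 14 to 29 elsewhere, and the Y-linked Ddx3y had 289 reads there and 724 to 884 elsewhere, so sex-linked content and loss of Mutyh alone cannot be told apart. The liver transcript Alb had 0 reads in Ogg1 KO and 723 to 761 in the others. These 3 genes were named after their values were seen. The part of any of these differences in the results below was not tested. In bulk tissue, fewer cells of a type and less RNA per cell cannot be told apart.

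The constitutive subunits lay close to each other in level. The 31 constitutive subunits, which leave out the chaperones and the inducible or tissue-restricted core genes, had mean levels from 22.6 RPKM (Psmd13) to 78.4 RPKM (Psmb1), a 3.47-fold span. Their standard deviation on the log2 scale was 0.40, against 1.59 over all 13186 genes with a mean of at least 1 RPKM, the set to which each background below refers. Over the 35 genes compared, with the chaperones and Psmb10, the levels spanned 14.4-fold and that standard deviation was 0.78. The whole group of 37 held 2044 reads per M (WT), 2024 (Ogg1 KO), 1959 (Mutyh KO) and 2039 (DKO). Its summed reads in Mutyh KO were 0.959 times those in WT after scaling to the library totals (0.945 to 0.973). Here and below, such a pair of values is an exact 95% interval, or for a ratio of ratios an approximate one taken on the log scale. Both kinds cover counting error only.

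The levels also changed little from library to library. The ratio of the highest to the lowest library was taken after adding 1 RPKM, which understates differences of weak genes. It had a median of 1.11 over the 35 genes. It was under 1.2 for 31 of them, or 88.6%, where 63.5% of all genes compared were that even. Without the added RPKM, Psmd9 was also past that line, at 1.21, and Psmc2 and Psmc5 stood at 1.2. That background was not matched for level. The median of the mean levels was 43 RPKM over the 37 genes and 9.97 RPKM over all genes compared. Counting error weighs more on weak genes, and its part in this difference was not tested.

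Some members share sequence or position with other genes, and no source used here says how the authors' counting treated such reads. At 95% identity over at least 100 bases, 10 of the 37 genes have pseudogene copies among GENCODE transcripts (16 pseudogenes, 0 of them listed in any library). Matches to all other genes together cover most of the transcript (76.5% to 98.2%) for Psmb5, Psmd2, Psmc1, Psmb3, Psma4 and Psma5. For Psma4 they include the protein-coding AY074887, and for Psmb5 the microRNA genes Gm22920 and Mir686. Exons of another gene lie on the same strand for 2 genes, Psmb5 (Mir686) and Psmd1 (Gm21972). Exons of another gene lie on the opposite strand for 8 genes: Psma4, Psma5, Psmb7, Psmc3, Psmd1, Psmd3, Psmd9 and Psmd13. No source used here says whether the libraries kept strand.

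**Figure D1:**
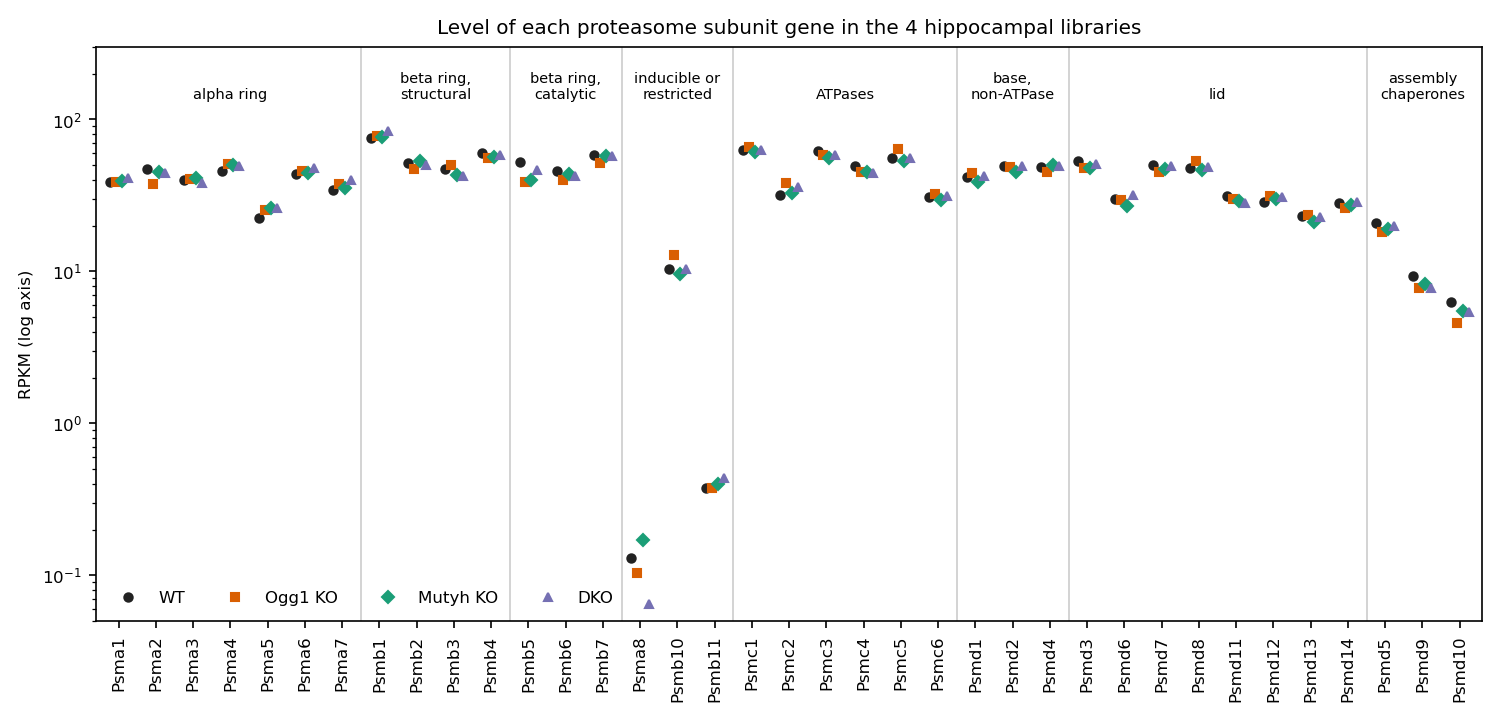
Level of each of the 37 genes in each library, in RPKM on a log axis, with genes grouped by role and 1 point for each library. The 31 constitutive subunits lie in a narrow band, the chaperones Psmd9 and Psmd10 and the inducible Psmb10 sit below it, and Psma8 and Psmb11 are under 1 RPKM.

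In the Ogg1 KO library the medians of both particles stayed near WT, and a few subunits stood off from it. The median log2 ratio to WT, taken after adding 1 RPKM, was 0.00 for the 17 core genes and -0.05 for the 20 regulatory genes, beside 0.02 for all genes compared. Summed core reads were 0.972 times the WT value (0.947 to 0.997) and regulatory reads 0.999 times (0.982 to 1.02). Of the 37 genes, 1 was at least 1.2-fold higher on that log scale (Psmb10), where 10.7% of all genes were, and 3 were at least 1.2-fold lower (Psmb5, Psma2 and Psmd10), where 5.99% of all genes were. None reached 2-fold, as 0.766% of all genes did. Counting error alone was exceeded, in that the interval of the read ratio left out 1, for 15 of the 37, where the background was 37.5%. Of the 35 genes compared, 2.86% were thus past 1.2-fold upward, under the background, and 8.57% downward, close to it.

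The Mutyh KO library held slightly fewer regulatory particle reads. The regulatory median log2 ratio to WT was -0.11, with 17 of 20 genes lower, where 6191 of the 13186 genes compared were lower. The core median was 0.01 and that of all genes 0.01. Summed regulatory reads were 0.945 times the WT value (0.928 to 0.962), and summed core reads 0.986 times (0.961 to 1.01). The regulatory genes lay between log2 ratios of -0.15 and 0.07, so the difference was small in each of them. In this library the 9 hippocampal neuron markers summed to 0.923 times WT (0.917 to 0.929) and the 10 oligodendrocyte markers to 1.16 times (1.15 to 1.17). The same sums were 0.94 and 1.12 times WT in Ogg1 KO, and 0.94 and 1.02 times in DKO. Of the 9 neuron markers, 3 were above WT in Mutyh KO and 6 below, as in Ogg1 KO, while in DKO 5 were above and 4 below. Camk2a alone held 102087 of their 194005 reads in WT. The part of these markers in the result was not tested. No member was at least 1.2-fold higher, against a background of 11.6%, and only Psmb5 was at least 1.2-fold lower, against 3.91%. None was 2-fold different (background 0.834%), and 7 of 37 had an interval leaving out 1 (background 36.2%).

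In DKO the genes lay as close to WT. The median log2 ratio was -0.02 for the core and 0.00 for the regulatory particle, and 0.00 for all genes. Core reads were 1.01 times WT (0.984 to 1.03) and regulatory reads 0.993 times (0.975 to 1.01). No member was at least 1.2-fold higher (background 8.58%), lower (4.79%) or 2-fold different (0.592%). The interval left out 1 for 8 of 37, where the background was 33.4%.

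Against the single knockouts the DKO library differed in few members. Against Ogg1 KO, the core median was 0.07 and core reads were 1.04 times as many (1.01 to 1.06), while the regulatory median was -0.01. No member was at least 1.2-fold higher (background 5.73%), only Psmb10 was at least 1.2-fold lower (8.12%), none was 2-fold different (0.387%), and 9 of 37 had an interval leaving out 1 (33.9%). Against Mutyh KO, the regulatory median was 0.06, with 15 of 20 genes higher, where 5976 of the 13186 genes compared were higher. Regulatory reads were 1.05 times as many (1.03 to 1.07), and the core median was 0.01. No member was past 1.2-fold upward (background 2.37%) or downward (6.35%) or past 2-fold (0.303%), and the interval left out 1 for 7 of 37 (23.1%).

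**Figure D2:**
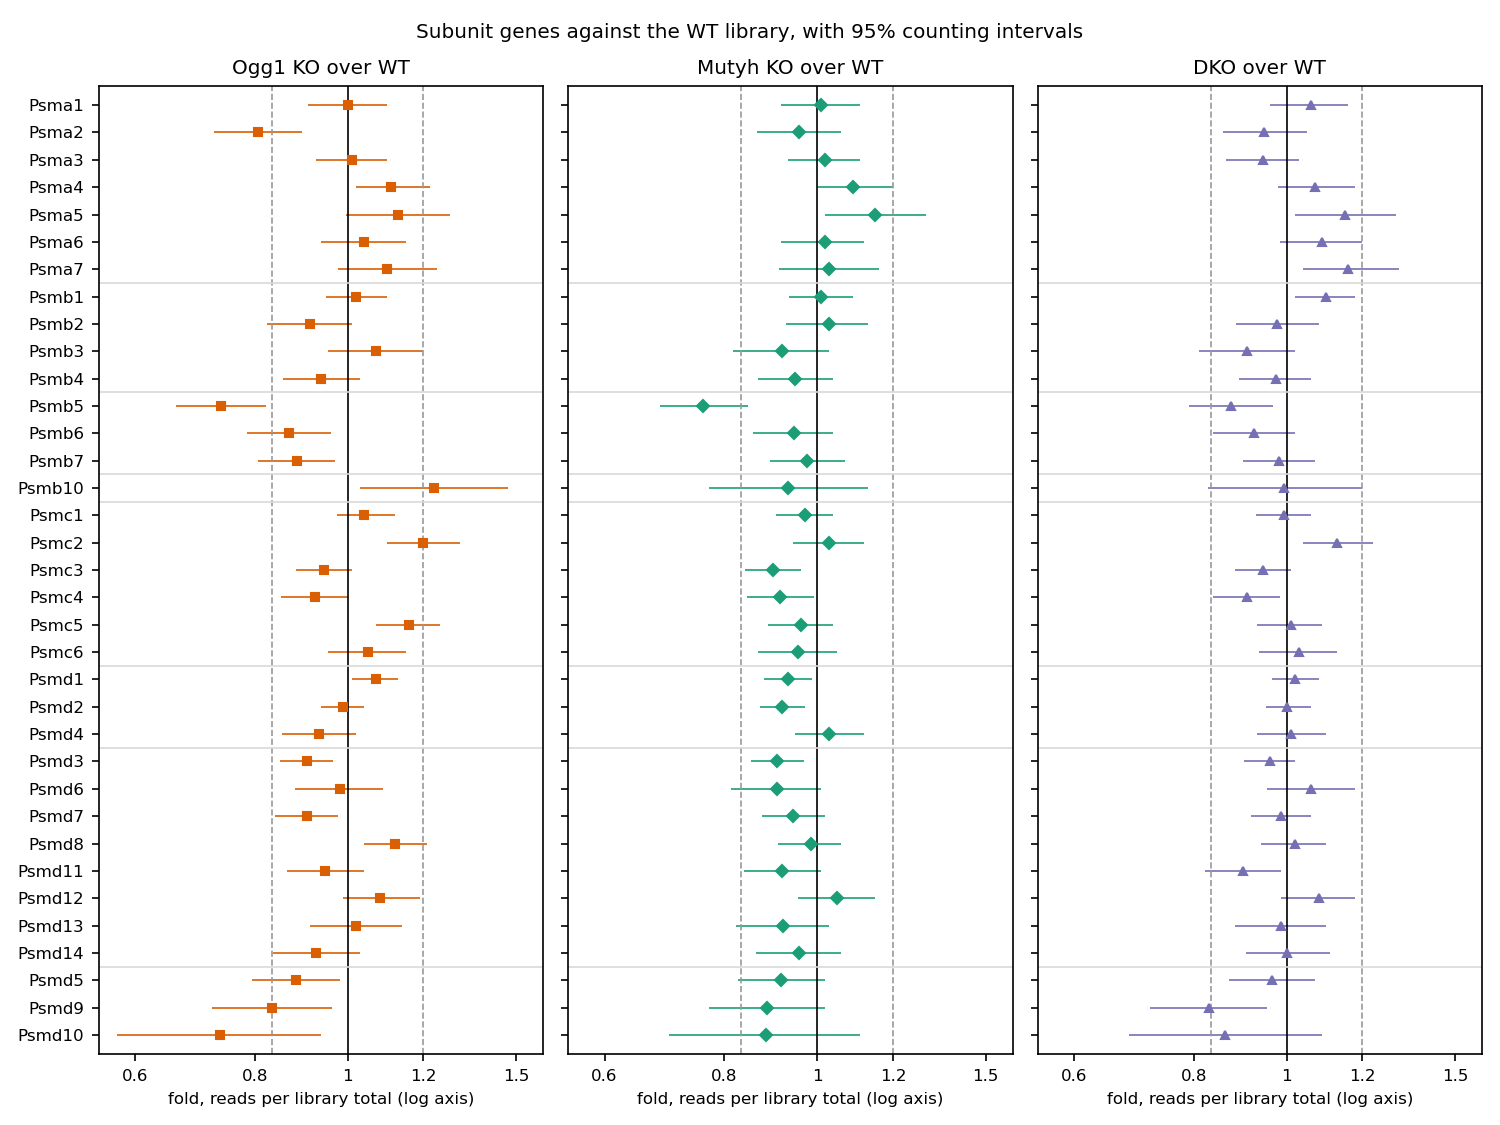
Ratio of each gene's reads per library total in the 3 knockout libraries to WT, on a log axis, for the 35 genes compared, with bars for exact 95% counting intervals and dashed lines at 1.2-fold. Psmb5 lies left of the dashed line in Ogg1 KO and Mutyh KO, at 0.738 and 0.761, and no gene lies beyond 2-fold.

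The alpha ring, whose 7 subunits form the outer rings of the core and its gate, was level or slightly above WT in the knockout libraries. Summed alpha reads were 1.02 times WT in Ogg1 KO (0.981 to 1.06), 1.03 times in Mutyh KO (0.995 to 1.07) and 1.04 times in DKO (1.01 to 1.08). Psma4 was the most abundant alpha gene, at 45.9 RPKM (WT), 51.2 (Ogg1 KO), 50.3 (Mutyh KO) and 49.3 (DKO). WT was lowest there, with an interval leaving out 1 only in Ogg1 KO (1.11 times, 1.02 to 1.22).

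Psma5 was the least abundant alpha gene, at 22.6, 25.5, 26.0 and 26.0 RPKM in the same order, with 499 to 575 reads. It was again lowest in WT, at 1.15 times WT in both Mutyh KO (1.02 to 1.3) and DKO (1.02 to 1.3). Psma1, Psma6 and Psma7 also had WT lowest, and Psma7 in DKO was 1.16 times WT (1.04 to 1.31). Psma3 stayed between 38.0 and 41.0 RPKM.

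Psma2 went the other way and was the alpha gene with the widest range. It had 819 reads (WT), 621 (Ogg1 KO), 742 (Mutyh KO) and 780 (DKO), or 46.9, 37.9, 44.9 and 44.5 RPKM. Only the Ogg1 KO library stood apart, at 0.807 times WT (0.726 to 0.897), and DKO, which also lacks Ogg1, was 1.17 times Ogg1 KO (1.06 to 1.31). No other GENCODE transcript matched it at 95% identity or more over at least 100 bases.

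The 4 structural subunits of the beta ring (Psmb1 to Psmb4), which have no cutting site, held 210 to 217 reads per M in every library. Psmb1 was the most abundant of all 37 genes, at 75.9 RPKM (WT), 77.6 (Ogg1 KO), 76.4 (Mutyh KO) and 83.5 (DKO), and the DKO library was highest, at 1.1 times WT (1.02 to 1.18). Psmb3 was the least abundant and the most variable of the 4, at 46.9, 50.1, 43.1 and 42.7 RPKM. Its DKO reads were 0.853 times those of Ogg1 KO (0.76 to 0.957), with neither of the 2 apart from WT by more than counting error. Psmb2 lay between 47.1 and 53.0 RPKM and Psmb4 between 56.1 and 59.8.

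The 3 catalytic subunits were lower than WT in every knockout library, as were 25.9% of all genes compared, and Psmb5 was lower by the most. Psmb5 carries the chymotrypsin-like site, which cuts after hydrophobic residues and is the main target of proteasome inhibitor drugs. It had 834 reads (WT), 578 (Ogg1 KO), 601 (Mutyh KO) and 733 (DKO), or 52.9, 39.0, 40.2 and 46.2 RPKM. WT was highest, both single knockouts were low and close together, and DKO lay between them and WT.

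For Psmb5 the ratio to WT was 0.738 in Ogg1 KO (0.662 to 0.821), 0.761 in Mutyh KO (0.685 to 0.847) and 0.875 in DKO (0.791 to 0.967). The DKO library was 1.19 times Ogg1 KO (1.06 to 1.32) and 1.15 times Mutyh KO (1.03 to 1.28). Psmb5 was therefore lower with loss of Ogg1 when Mutyh was intact and higher when it was not, by more than counting error both ways. It was the only 1 of 37 members with that pattern for loss of Ogg1 (background 7.85%) and the only 1 for loss of Mutyh (background 7.57%). Had the single ratios multiplied, DKO would have been lower than it was by a factor of 1.56 (1.34 to 1.81). Psmb5 was not alone in this. The same factor had an interval above 1 for Psma2 (1.23, 1.06 to 1.42), Psmd5 (1.19, 1.03 to 1.38) and Psmd6 (1.19, 1.02 to 1.38). It also did for Psmc3, Psmd2, Psmd3 and Psmd7, at 1.1 to 1.16. The share of all genes with such an interval was not computed. Reads covered 97.2% to 97.9% of Psmb5 in every library. At 95% identity or more, matches to other genes together cover 88.4% of the Psmb5 transcript. These genes are the processed pseudogene Gm3375 and the microRNA genes Gm22920 and Mir686. That pseudogene was listed in no library, and no source used here says how the authors' counting treated reads that fit both.

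Psmb6, with the caspase-like site, had 46.0 RPKM (WT), 39.9 (Ogg1 KO), 43.5 (Mutyh KO) and 42.5 (DKO), from 704 to 863 reads. Psmb7, with the trypsin-like site, had 58.4, 51.6, 57.1 and 57.4 RPKM, from 852 to 1025 reads. In both genes WT was highest and Ogg1 KO lowest, at 0.868 times WT for Psmb6 (0.785 to 0.96) and 0.885 times for Psmb7 (0.807 to 0.97). In Mutyh KO and DKO their intervals included 1.

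The reads of the 3 catalytic genes, set against those of the other 11 constitutive core genes in the same library, gave a ratio 0.83 times that of WT in Ogg1 KO (0.779 to 0.885), 0.891 times in Mutyh KO (0.837 to 0.948) and 0.903 times in DKO (0.85 to 0.96). This ratio does not depend on the library total. Without Psmb5, a choice made after seeing the data, it was 0.873 (0.811 to 0.939), 0.952 (0.886 to 1.02) and 0.927 (0.864 to 0.995). The Mutyh KO interval then included 1. Choroid plexus markers were highest in the libraries where Psmb5 was lowest (4725 and 4716 reads per M against 483 in WT and 2442 in DKO), and their part in the result was not tested. With ribosomal RNA, choroid plexus and red blood cell genes taken out of the library totals, the Psmb5 ratio to WT was 0.738 (Ogg1 KO), 0.77 (Mutyh KO) and 0.883 (DKO). That step removed 0.784% (WT) to 1.85% (Mutyh KO) of the reads and changed only the totals. It cannot show how far choroid plexus cells add to or dilute the Psmb5 reads.

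**Figure D3:**
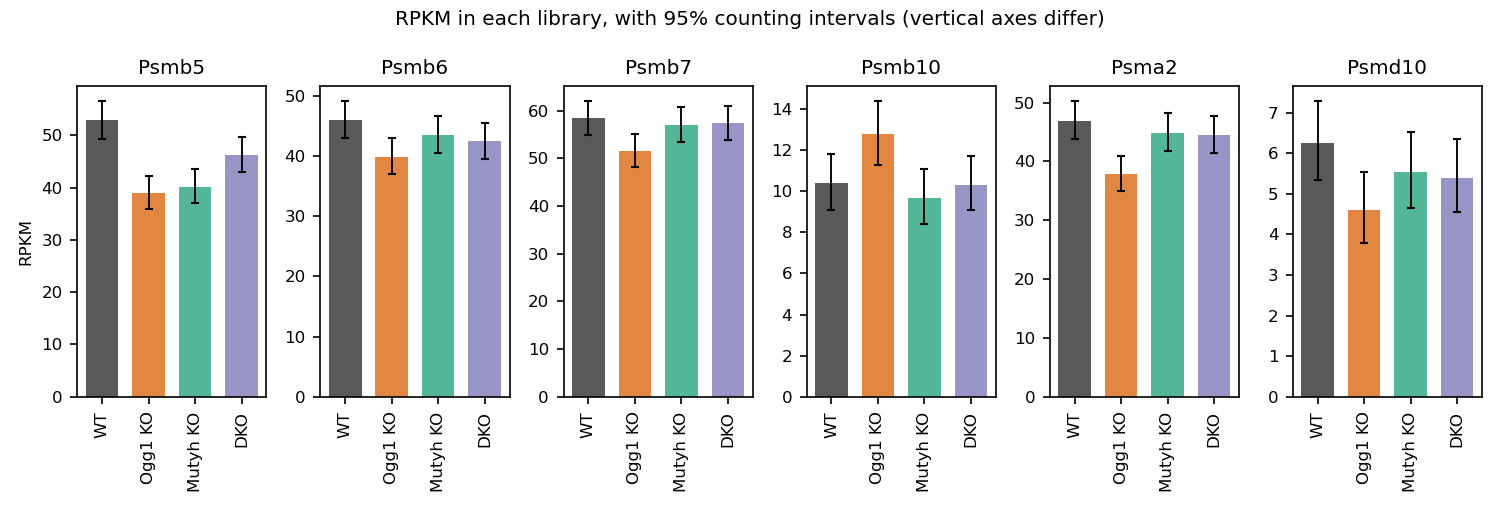
RPKM of 6 genes in the WT, Ogg1 KO, Mutyh KO and DKO libraries, as bars from 0 with exact 95% counting intervals, each panel with its own axis. Psmb5 stands at 52.9 in WT, 39.0 and 40.2 in the single knockouts and 46.2 in DKO, while Psmb10 is highest in Ogg1 KO.

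The promoters of the members were searched for the core of the antioxidant response element, TGACNNNGC on either strand, the element through which Nfe2l1 and Nfe2l2 are known to act. RefSeq promoter windows of 300 bases (GRCm38.p6, from 250 before to 50 after the start site) were at hand for 32 start sites of 30 of the 37 genes, and 5 of the 32 (15.6%) held the core, beside 12.4% of all 32851 windows. They belong to Psmb5, Psmb6, Psmc6, Psmd9 and Psmd12. The CCAAT box was found in 12 of the 32 (37.5%), beside 37.4% of all windows, and GAAANNGAA, the core of the interferon response element, in 5 of the 32 (15.6%), beside 8.56%. A match is only a description of the sequence. The 250 bases before the start site are shown for Psmb5, Psmb6 and Psmd9, the genes with the antioxidant response core for which WT was above all 3 knockout libraries. The other genes with it differed: WT was below all 3 for Psmd12, and Psmc6 was highest in Ogg1 KO (1.05 times WT, 0.953 to 1.15). Capitals mark the antioxidant response core, at positions -47, -9 and -31 from the start site, and in Psmd9 also the interferon core, at -159. They lie at chr14:54617996-54618245 (- strand), chr11:70525107-70525356 (+ strand) and chr5:123227940-123228189 (+ strand).
Psmb5: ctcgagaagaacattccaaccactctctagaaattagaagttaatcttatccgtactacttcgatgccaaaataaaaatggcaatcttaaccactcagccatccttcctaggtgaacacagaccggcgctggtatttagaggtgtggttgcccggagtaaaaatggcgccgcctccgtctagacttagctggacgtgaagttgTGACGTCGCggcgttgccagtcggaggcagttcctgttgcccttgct
Psmb6: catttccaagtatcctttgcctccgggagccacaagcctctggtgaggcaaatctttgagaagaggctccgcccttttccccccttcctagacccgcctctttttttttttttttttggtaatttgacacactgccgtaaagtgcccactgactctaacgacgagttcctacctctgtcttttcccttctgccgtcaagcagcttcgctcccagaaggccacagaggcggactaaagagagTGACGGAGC
Psmd9: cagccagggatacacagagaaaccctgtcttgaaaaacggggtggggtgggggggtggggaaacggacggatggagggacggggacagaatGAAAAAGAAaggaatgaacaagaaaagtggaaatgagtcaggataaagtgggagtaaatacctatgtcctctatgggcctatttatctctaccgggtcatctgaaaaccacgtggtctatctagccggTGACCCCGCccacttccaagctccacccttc

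Psmb10 replaces Psmb7 in the immunoproteasome, the form with altered cutting sites that interferon induces and that is prominent in immune cells. It had 239 reads (WT), 277 (Ogg1 KO), 211 (Mutyh KO) and 239 (DKO), or 10.4, 12.8, 9.69 and 10.3 RPKM. Ogg1 KO was the highest library, at 1.23 times WT (1.03 to 1.47), and DKO was 0.807 times Ogg1 KO (0.676 to 0.963). Scaling by the median of ratios put its log2 ratio in Ogg1 KO under the 1.2-fold line.

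The level of Psmb10 relative to Psmb7, both per length, was 0.178 (WT), 0.248 (Ogg1 KO), 0.17 (Mutyh KO) and 0.18 (DKO). In Ogg1 KO that ratio was 1.39 times the WT ratio (1.15 to 1.7), and both genes contributed, since Psmb7 was lowest where Psmb10 was highest. The other inducible subunits were rare: Psmb8, the counterpart of Psmb5, had 54, 35, 39 and 58 reads, and Psmb9, that of Psmb6, 13, 14, 17 and 18, and their ratios to the constitutive partner had intervals including 1 in each knockout. The 10 interferon response markers summed to 58.1, 64.7, 70.6 and 79.7 reads per M, the 10 microglia markers to 433, 413, 425 and 442, and the 9 T and B lymphocyte markers to 1.93 to 2.75. Among single markers in Ogg1 KO, named after their values were seen, P2ry12 and Itgam of microglia were 1.25 times WT (1.11 to 1.4) and 1.26 times (1.09 to 1.44). They were the only 2 of the 10 microglia markers above WT there. The other 8 were below it, among them Tmem119 at 0.751 times WT (0.649 to 0.868). The part of these markers in the Psmb10 result was not tested.

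Both tissue-restricted core genes were close to absent. Psma8, an alpha subunit of the testis, had 4, 3, 5 and 2 reads, so no difference was detectable at this depth. Psmb11, the catalytic subunit of the thymic cortex, had 29, 27, 29 and 34 reads, or 0.373 to 0.44 RPKM, and reads covered at most 13.2% of its length.

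In the regulatory base, the 6 ATPases (Psmc1 to Psmc6), the ring that unfolds substrates and opens the gate, held 443 reads per M (WT), 461 (Ogg1 KO), 421 (Mutyh KO) and 440 (DKO). The sum was 1.04 times WT in Ogg1 KO (1.01 to 1.07) and 0.95 times in Mutyh KO (0.92 to 0.981). All 6 were lower in DKO than in Ogg1 KO, as were 7134 of the 13186 genes compared. Their log2 ratios ran from -0.20 to 0.00, and the interval left out 1 for Psmc5 alone.

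Psmc1 was the most abundant ATPase, at 63.0, 65.7, 61.2 and 62.7 RPKM in WT, Ogg1 KO, Mutyh KO and DKO, each knockout within counting error of WT. Psmc6 was the least abundant, at 30.7, 32.2, 29.3 and 31.6 RPKM. Psmc5 had the widest range, at 55.7, 64.4, 53.6 and 56.1 RPKM, with Ogg1 KO standing above the others at 1.16 times WT (1.07 to 1.25).

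Psmc2 was close to it in range, at 32.0, 38.4, 32.9 and 36.1 RPKM, with both libraries that lack Ogg1 above both that carry it. Its ratio to WT was 1.2 in Ogg1 KO (1.1 to 1.31), just under the line on the log scale, and 1.13 in DKO (1.04 to 1.23). Psmc3 and Psmc4 were highest in WT: Psmc4 had 49.1 RPKM there and 44.6 to 45.4 in the knockouts, and Psmc3 had 61.8 against 55.6 to 58.4.

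The non-ATPase subunits of the base are the scaffolds Psmd1 and Psmd2, which dock substrate carriers and deubiquitinating enzymes, and the ubiquitin receptor Psmd4. Psmd4 had 48.7 RPKM (WT), 45.4 (Ogg1 KO), 50.3 (Mutyh KO) and 49.3 (DKO), with every interval to WT including 1. Psmd1 had 41.6, 44.6, 38.8 and 42.5 RPKM, from 2168 to 2519 reads. It was above WT in Ogg1 KO (1.07 times, 1.01 to 1.13) and below WT in Mutyh KO (0.933 times, 0.88 to 0.989). Psmd2, with 2401 to 2783 reads the gene with most reads of the 37, was lowest in Mutyh KO, at 0.92 times WT (0.871 to 0.972), and 98.2% of its transcript matches a pseudogene, Gm5422, that was listed in no library.

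The 8 lid subunits include Psmd14, the metalloprotease that cuts ubiquitin chains off the substrate. Psmd14 was even, at 28.4 RPKM (WT), 26.3 (Ogg1 KO), 27.2 (Mutyh KO) and 28.5 (DKO). Summed lid reads were 0.977 times WT in Ogg1 KO (0.948 to 1.01), 0.946 times in Mutyh KO (0.918 to 0.975) and 0.992 times in DKO (0.963 to 1.02). In Mutyh KO 7 of the 8 lid genes were below WT, as were 6191 of the 13186 genes compared.

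Psmd3, the most abundant lid gene, had 53.1, 48.1, 48.3 and 50.9 RPKM, and WT was highest, with ratios of 0.906 in Ogg1 KO (0.85 to 0.966) and 0.909 in Mutyh KO (0.853 to 0.969). Psmd13, the least abundant, had 23.0, 23.5, 21.2 and 22.7 RPKM, each knockout within counting error of WT. Psmd6 had the widest range, at 29.9, 29.3, 27.1 and 31.7 RPKM, and DKO was 1.17 times Mutyh KO (1.05 to 1.3). Among the others, Psmd8 was above WT in Ogg1 KO (1.12 times, 1.04 to 1.21), Psmd7, the partner of Psmd14, was below WT there (0.906 times, 0.84 to 0.978), Psmd11 was below WT in DKO (0.901 times, 0.823 to 0.987) and Psmd12 was within counting error of WT.

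Psmd5, Psmd9 and Psmd10 are chaperones that hold ATPases during assembly of the base and leave before the particle is finished. All 3 were highest in WT, as were 25.9% of all genes compared. The interval of the single gene left out 1 for all 3 in Ogg1 KO, for 0 in Mutyh KO and for Psmd9 alone in DKO. Summed, they held 76.4 reads per M (WT), 64.9 (Ogg1 KO), 69.1 (Mutyh KO) and 69.4 (DKO), or 0.85 times WT (0.784 to 0.92), 0.904 times (0.836 to 0.978) and 0.909 times (0.842 to 0.982).

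Psmd5 was the most abundant chaperone, at 20.7, 18.3, 19.0 and 20.0 RPKM, and its Ogg1 KO ratio was 0.883 (0.794 to 0.982). Psmd9 had 443 reads (WT), 347 (Ogg1 KO), 372 (Mutyh KO) and 369 (DKO), at 0.834 times WT in Ogg1 KO (0.722 to 0.962) and 0.829 times in DKO (0.72 to 0.954). Psmd10 was the least abundant, at 165, 114, 138 and 143 reads or 6.25, 4.60, 5.53 and 5.40 RPKM. It was 0.735 times WT in Ogg1 KO (0.574 to 0.939), and its intervals in Mutyh KO and DKO included 1. The gene that overlaps exons of Psmd9 on the opposite strand is Gm26745.

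**Figure D4:**
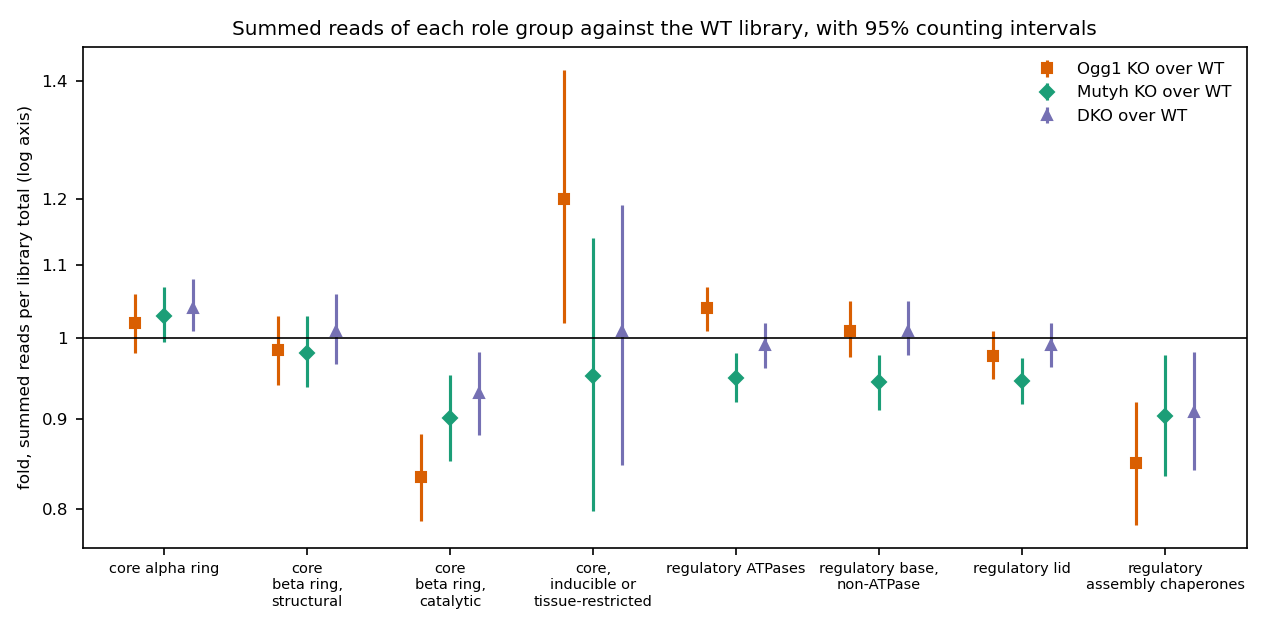
Summed reads of each role group per library total in the 3 knockout libraries, relative to WT, on a log axis with exact 95% counting intervals. The catalytic group (0.834 in Ogg1 KO) and the chaperones (0.85) lie lowest, and the ATPases, the base and the lid lie below 1 together in Mutyh KO.

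The WT library was above all 3 knockout libraries for 13 of the 37 genes, where the background was 25.9% of genes. They were Psma2, Psmb4, the 3 catalytic genes, Psmc3, Psmc4, the lid genes Psmd3, Psmd7 and Psmd11, and the 3 chaperones. WT was below all 3 for 8 (background 30.7%), of which 5 were alpha genes (Psma1, Psma4, Psma5, Psma6 and Psma7) and the others Psmb1, Psmc2 and Psmd12. For Psma1, Psma6 and Psmb1 that position was lost when the libraries were scaled by the median of ratios or by TMM factors, under which the counts were 16 genes with WT highest and 5 with WT lowest. The 3 comparisons with WT share the 1 WT library.

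Grouped by allele, both libraries without Ogg1 were above both with it for 9 of the 37 genes (background 13.3%): Psma6, Psma7, Psmb1, Psmc2, Psmc5, Psmc6, Psmd1, Psmd8 and Psmd12. They were below both for 6 (background 14.4%), namely Psma2, Psma8, Psmb2, Psmb6, Psmd9 and Psmd10. Psma8 is too weak for that background, and of the 35 genes compared 5 (14.3%) were below. Both libraries without Mutyh were above both with it for 4 (background 18.3%), namely Psma1, Psma5, Psmb11 and Psmd4. Psmb11 is likewise too weak for the background, and of the 35 genes compared 3 (8.57%) were above. Both libraries without Mutyh were below both with it for 7 (background 19.6%): Psmb3, Psmb10, Psmc1, Psmc3, Psmc4, Psmd11 and Psmd13.

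Genes that assemble, activate or feed the proteasome were taken from 6 lists, which hold 37 listed genes outside the members. Among the 5 core assembly chaperones (Pomp and Psmg1 to Psmg4) none passed 1.2-fold with an interval leaving out 1 in any knockout, and Pomp, which matures the core, had 57.5, 68.1, 55.2 and 60.3 RPKM. Of the 5 activators and inhibitors, Psme4, a nuclear activator, was 1.26 times WT in Ogg1 KO (1.16 to 1.38) and Psme2, a subunit of the interferon-inducible cap, 1.25 times in DKO (1.04 to 1.51). Psme3, the subunit of a nuclear cap, was below WT in all 3 knockouts, at 0.901 times in Ogg1 KO (0.852 to 0.953), 0.898 times in Mutyh KO (0.849 to 0.95) and 0.879 times in DKO (0.831 to 0.929). Psmf1, an inhibitor of the core, was 0.878 times WT in DKO (0.774 to 0.997). Of 8 partners of the regulatory particle, AI314180, the mouse gene for the adaptor Ecm29 that holds core and cap together, was 1.23 times WT in Ogg1 KO (1.15 to 1.31).

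Of the 4 genes of transcriptional control, Nfe2l1 itself was even, at 69.4, 71.5, 71.8 and 68.9 RPKM. Ddi2, the protease that activates its protein, was above WT in all 3 knockouts, with 217 reads in WT against 252, 269 and 280, or 1.31 times WT in Mutyh KO (1.09 to 1.57) and 1.28 times in DKO (1.07 to 1.54). Nfe2l2, the regulator of the antioxidant response, had 7.96, 9.61, 8.17 and 7.41 RPKM. It was highest in Ogg1 KO, at 1.21 times WT (1.04 to 1.4), and DKO was 0.771 times Ogg1 KO (0.665 to 0.893). Ngly1, the enzyme that removes sugar chains from the Nfe2l1 protein, was 0.836 times WT in Ogg1 KO (0.706 to 0.988). Of the 4 ubiquitin precursor genes, Rps27a, which fuses ubiquitin to a ribosomal protein, was 0.799 times WT in Ogg1 KO (0.734 to 0.869) with 967 reads against 1288. The 11 genes of ubiquitin activation and shuttling all stayed within 1.2-fold of WT, with 7, 10 and 9 of them below it in Ogg1 KO, Mutyh KO and DKO, where 5987, 6191 and 6691 of the 13186 genes compared were below it.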

How the data were processed

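RNA from hippocampus was sequenced in 4 libraries, 1 per genotype, grouped by the genotype or title in the labels. Total RNA was isolated with a Qiagen RNeasy kit, per the labels' protocols. The mouse build named is mm9, per the submitters' processing notes. No source used here names the aligner, the counting program, the annotation or the strandedness. The authors deposited, per the file headers, a count of unique reads per gene, the gene length in bases (a value of another kind), coverage as a percent of that length, and RPKM. Genes without reads were not listed by the authors and were taken as 0. Rows without a symbol held 0.0179% to 0.0195% of the reads and stayed in the totals under their IDs.

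From the deposited counts, each ratio of reads per library total was computed with an exact conditional 95% interval (Clopper-Pearson, scipy 1.17.1, numpy 2.4.6, pandas 2.3.3, Python 3.11.15). Log2 ratios were computed from the deposited RPKM with 1 RPKM added, which understates differences of weak genes. Genes with a mean of at least 1 RPKM (13186 of 18492) formed the background. Ratios of ratios were given an approximate 95% interval on the log scale (Wald) instead. These were the catalytic to other core genes, the inducible subunits to their constitutive partners, and Psmb5 and other members in DKO against the multiplied single ratios. The intervals cover counting error only, and reads without molecular identifiers are not independent molecules. Summed and counted results were recomputed with a pseudocount of 0.1 or 5 RPKM, a minimum mean of 1 or 10 RPKM, scaling by the median of ratios or by TMM factors (edgeR 4.0.16, R 4.3.3), and without the gene with most reads, the chaperones or the inducible core genes. Reduced library totals and leaving out Psmb5 were chosen after seeing the data. The calculation was tested on simulated data.

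Every member is named in its role group. Full values are given, in each group, for the genes with the highest and lowest mean and the widest range, for Psmb5, Psmb6, Psmb7, Psmb10, Psmd4 and Psmd14, and for genes at least 1.2-fold from WT with an interval leaving out 1. Further values of single members and of pathway genes (such as Psme3, Psmf1, Nfe2l2 and Ngly1) were added after they were seen. Other pathway genes with like ratios are not named above, such as Ube3c at 0.843 times WT in Ogg1 KO (0.786 to 0.905). The members, the role, pathway and marker lists and these rules were chosen with earlier results of these data known. Copies were sought with blastn 2.17.0 among GENCODE M21 transcripts, and promoters come from RefSeq (GRCm38.p6), another build than the files'. Promoters of Psma8, Psmb1, Psmb2, Psmb7, Psmc3, Psmd3 and Psmd7 were not used here. Figures were drawn with matplotlib 3.10.9.

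Summed reads per M (M, mega) of the remaining marker lists, in WT, Ogg1 KO, Mutyh KO and DKO, were 298, 313, 340 and 329 for endothelium, 4763, 5346, 5527 and 4864 for oligodendrocytes, 2101, 2104, 2184 and 2212 for astrocytes, and 131, 157, 175 and 153 for immunoproteasome partners with Psmb8 and Psmb9.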

Additional observations from a re-analysis of the deposited data

Results flagged for a closer look

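Psmb5 was the 1 gene of the 37 for which losing a glycosylase gene went with opposite directions depending on the other. Its reads per library total stood at 0.738 times WT in Ogg1 KO but at 1.15 times Mutyh KO in DKO, so the library without Ogg1 was lower when Mutyh was intact and higher when it was not. In the same way, Mutyh KO stood at 0.761 times WT, and DKO at 1.19 times Ogg1 KO. Each of the 4 intervals left out 1, but they hold counting error and nothing else. The difference between backgrounds was not tested, as each genotype has a single library, and 7.85% and 7.57% of all genes compared showed such opposite directions for loss of Ogg1 and of Mutyh.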

How the results depend on the processing

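Of 188 recomputed values, 171 moved by less than the limit used (counting error, or 1.5 times for a count), 15 moved by more, and 2 changed sign where the interval of the summed reads left out 1. The last were the core median log2 ratio in Ogg1 KO, 0.00 as reported and -0.01 under the median of ratios and under TMM factors. Other values near no difference also changed sign within counting error, among them the core median in Mutyh KO (0.01 to -0.02 under both scalings), the regulatory median in DKO against Ogg1 KO (-0.01 to 0.01 under the median of ratios and reduced totals) and the core read ratio in DKO, 1.01 as reported, 0.998 under TMM factors and 0.996 without the gene with most reads. The regulatory median in Ogg1 KO became -0.02 over genes with a mean of at least 10 RPKM and -0.01 without the chaperones. In Mutyh KO the regulatory median was -0.14 under both scalings, and the regulatory read ratio 0.922 (median of ratios) and 0.924 (TMM). Psmb10 was the only gene at least 1.2-fold higher in Ogg1 KO, and the count was 0 under the median of ratios and with a pseudocount of 5 RPKM. Its count of 1 lower in DKO than in Ogg1 KO became 0 with 5 RPKM and, with Psma8 added, 2 with 0.1 RPKM. With 0.1 RPKM, 2 genes were lower in DKO than in WT (Psma8 and Psmd9) and 1 lower than in Mutyh KO (Psma8, on 2 to 5 reads). The count of genes with WT lowest was 5 under both scalings, against 8, with no background computed under them. The catalytic ratio in Mutyh KO without Psmb5 was 0.952. Reduced library totals moved none of the 35 values recomputed with them by that much. The cause of these shifts was not tested. Under the other scalings the median log2 ratio of all genes lay between -0.02 and 0.03.

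No paired analysis was possible because each genotype has 1 library. The depth limits what can be seen: Psmb5, with 578 to 834 reads, has an interval of 0.662 to 0.821 in Ogg1 KO, and for Psma8, with 2 to 5 reads, no difference was detectable. Differences between animals, dissections and library preparations are not measured, and those in choroid plexus, blood, meningeal and sex-linked transcripts go with the genotypes.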

Other observations

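Loss of Ogg1 went in the same direction with and without Mutyh for 21 of the 35 genes compared (60%), beside 46.5% of all genes compared, and loss of Mutyh with and without Ogg1 for 19 of 35 (54.3%), beside 51.7%. These pairs of comparisons share no library, and genes of 1 complex are not independent of each other, so the shares are a description.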
